A study of Mus musculus with 6 samples.

Results

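The insulin-like growth factor (IGF) axis was examined in total RNA from RPE/choroid, the pigment epithelium behind the retina scraped from the eyecup together with the vascular choroid beneath it. The genes are the ligand Igf1, its receptor Igf1r, and the binding proteins Igfbp2 to Igfbp7, taken by symbol, with the imprinted Igf2 and Igf2r left out. All 8 were found among the 33924 genes of the table, and all 8 were among the 18636 genes tested. Libraries came from 3 young and 3 aged C57BL/6J mice, an inbred wild-type strain, with no transgene or treatment in either group. The labels give the young mice as 1 to 2 months old. The aged mice are 20 to 24 months old in the titles and 22 to 24 months in the time label. The labels name males alone. The study's methods name both sexes and place the young group at a slightly greater age, so age and sex carry that uncertainty.

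IGF-1 is a secreted hormone and local growth factor that acts through the receptor tyrosine kinase encoded by Igf1r, which drives the PI3K-Akt-mTOR and Ras-MAPK pathways. In tissue fluid most IGF is held by IGF binding proteins, which lengthen its life, keep it from the receptor or hand it over near the cell, and which are themselves cut by proteases. In the eye, IGF-1 is known as a growth and survival signal for retinal and choroidal vessels and for the pigment epithelium.

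The binding proteins are kin, and a short coding stretch shows how closely. The lines below give the coding strand of GRCm38 over the cysteine-rich block near the amino end of each protein, 21 codons long, with cysteine codons in capitals. They are shown because the family is treated as a group in what follows. Of the 6, 2 were called, Igfbp2 lower and Igfbp6 higher in aged mice, beside 21.2% of all genes tested.

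Igfbp2, chr1:72824772-72824834, plus strand: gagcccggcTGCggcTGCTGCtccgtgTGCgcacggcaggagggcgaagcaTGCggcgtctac

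Igfbp3, chr11:7213533-7213595, minus strand: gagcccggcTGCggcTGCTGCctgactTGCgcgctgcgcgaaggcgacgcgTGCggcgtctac

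Igfbp4, chr11:99041644-99041706, plus strand: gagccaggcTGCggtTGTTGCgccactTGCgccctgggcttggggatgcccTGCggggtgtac

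Igfbp5, chr1:72873933-72873995, minus strand: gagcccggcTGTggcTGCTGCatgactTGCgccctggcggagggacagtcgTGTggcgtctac

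Igfbp6, chr15:102144710-102144772, plus strand: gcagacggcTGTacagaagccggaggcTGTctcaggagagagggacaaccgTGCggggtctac

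Igfbp7, chr5:77407793-77407855, minus strand: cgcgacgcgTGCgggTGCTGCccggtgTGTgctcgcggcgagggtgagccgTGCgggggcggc

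Each stretch lies within 1 exon. Igfbp2, Igfbp3, Igfbp4, Igfbp5 and Igfbp7 have 5 cysteine codons at the same places, whereas Igfbp6 has 3 and lacks the adjoining pair. Igfbp3 and Igfbp5 were the most alike of the 15 pairs, with 51 of 63 bases identical, and Igfbp4 and Igfbp6 the least alike, with 29. Igfbp6 shared between 29 and 33 of its bases with each of the other members. These similarities are short, and between 94.2% and 100% of the 31-base words in each gene's annotated transcripts occur in no other gene. Igfbp4 had the lowest of these shares and Igf1 the next lowest, at 99.8%. The only annotated genes that overlap a member lie on the opposite strand. They are Igf1os across Igf1, and Polr2b and Gm34648 across Igfbp7. The library kit kept strand, but how strand was used in counting is not given in the sources used here.

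To ask how the axis differs with age, the values of the authors' deposited DESeq2 table were read for each gene. For each gene it gives the mean normalized count of the 6 libraries (baseMean), the log2 ratio of the groups, the standard error (SE) of that ratio, and an adjusted p. No value per mouse was analysed here, so spread between mice enters only through the SE, and depth per library is unknown here. The sign is given as aged over young throughout. Because the tissue is bulk, fewer cells of a type and less RNA per cell cannot be told apart.

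Of the 8 genes, 3 differed between aged and young mice at an adjusted p under 0.05, which is 37.5%, against 21.2% of all genes tested. Igfbp2 and Igf1 were lower in aged tissue, 2 of 8, where 9.92% of all genes tested were lower. Igfbp6 was higher, 1 of 8, where 11.3% of all genes tested were higher. The other 5, Igf1r, Igfbp3, Igfbp4, Igfbp5 and Igfbp7, did not pass. The median log2 fold change of the 8 was 0.03, beside -0.01 over all genes tested. With so few genes these shares are a description.

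**Figure D1:**
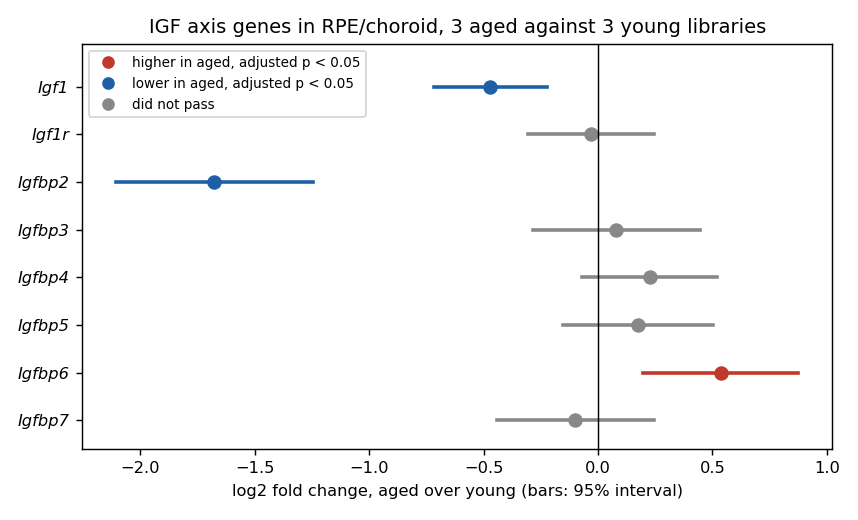
Log2 fold change, aged over young, of each IGF axis gene (points) with its 95% interval (bars), from 3 aged and 3 young libraries. Igfbp2 lies far to the left at -1.68, Igf1 at -0.47 and Igfbp6 at 0.54, while the intervals of the 5 grey genes cross 0.

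Igf1 is the ligand of the axis. It lies on chromosome 10 at 87858265 to 87937042 (GRCm38, plus strand) and has 8 annotated transcripts, all coding, with a longest transcript of 7052 bases. Its baseMean was 2503 normalized counts. By DESeq2 its level in aged mice was 0.72 times that in young mice, a log2 fold change of -0.47 ± 0.13 (SE, 3 libraries per group), with an adjusted p of 0.00195. The 95% interval ran from -0.72 to -0.22, so the aged level was between 0.61 and 0.86 times the young level. Its SE was the smallest of the 8 genes. The table sums over transcripts, so the individual Igf1 isoforms were not compared.

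Igf1r, the receptor, differed little between the groups. It lies on chromosome 7 at 67952827 to 68233668 and its longest transcript has 11409 bases. At a baseMean of 1744, its log2 fold change was -0.03 (SE 0.14, adjusted p 0.916). The 95% interval, from -0.30 to 0.25, contains falls to 0.81-fold and rises to 1.19-fold, and estimates of that size would not have been called. Igf1 thus passed the test and Igf1r did not, but the difference between their fold changes was not tested and their intervals overlap.

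Igfbp2, a binding protein abundant in fetal tissues and in the nervous system, had the largest change of the axis. It lies on chromosome 1 at 72824503 to 72852474 (plus strand). Its level in young mice was 3.20 times that in aged mice, or -1.68 ± 0.22 as aged over young on the log2 scale (SE, adjusted p 1.15e-12 by DESeq2). The interval of -2.11 to -1.25 did not overlap that of any other member. Only 137 of the 18636 genes tested, Igfbp2 included, had a fold change as low or lower, and all of these 137 were among the 1849 genes called lower in aged mice.

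The error of Igfbp2 was wide for its abundance. Its SE of 0.22 was larger than that of 97.2% of the 1000 genes closest to it in baseMean, whose median was 0.13. At this SE, a change of 0.56 on the log2 scale would have been enough for a call. Without values per mouse it cannot be said whether 1 library sets this spread.

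Igfbp6, which binds IGF-2 in preference to IGF-1, moved the other way. It lies on chromosome 15 at 102144362 to 102149511 (plus strand), with 1 annotated transcript of 1112 bases. Its log2 fold change was 0.54 ± 0.17 (SE, adjusted p 0.0134 by DESeq2), or 1.45 times as much in aged as in young mice. The interval ran from 0.20 to 0.88, and the smallest change called at this SE would be 0.44, so the call is close to the limit. It did not pass an adjusted p under 0.01. Its SE was larger than that of 90.2% of the genes of like baseMean.

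Igfbp5 was by far the most abundant gene of the axis. It binds IGF and also the extracellular matrix, and at 48683 normalized counts it was the gene with the 21st highest baseMean in the whole table. It lies on chromosome 1 at 72857932 to 72874884 (minus strand), tail to tail with Igfbp2, and only 5457 bases separate the ends of the pair. The aged over young log2 ratio of Igfbp5 was 0.17 (SE 0.17, interval -0.15 to 0.50, adjusted p 0.503). The neighbours therefore had intervals that did not overlap, with Igfbp2 lower in aged mice and Igfbp5 not called.

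Igfbp4, an inhibitor of IGF action in most settings, was the next most abundant by baseMean, at 11776 normalized counts. Its log2 fold change was 0.23 (SE 0.15, interval -0.07 to 0.52, adjusted p 0.296). Igfbp3, the main carrier of IGF in blood, had 0.08 (SE 0.19, interval -0.28 to 0.45, adjusted p 0.811) at a baseMean of 2668. Igfbp1 lies 3539 bases from Igfbp3 on chromosome 11, and was named for that after its value had been seen. At a baseMean of 0.806 it was too low for an adjusted p, so of this neighbouring pair only Igfbp3 has one.

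Igfbp7 is the outlying relative, with low affinity for IGF and a place in the walls of vessels. It lies on chromosome 5 at 77349240 to 77408041. Its log2 fold change was -0.10 (SE 0.17, interval -0.44 to 0.24, adjusted p 0.745) at a baseMean of 6422. For the 5 genes that did not pass, the smallest changes that would have been called ranged from 0.36 for Igf1r to 0.48 for Igfbp3 on the log2 scale. These are limits on the estimate and not on the true change, so the values do not show that these genes are unchanged.

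**Figure D2:**
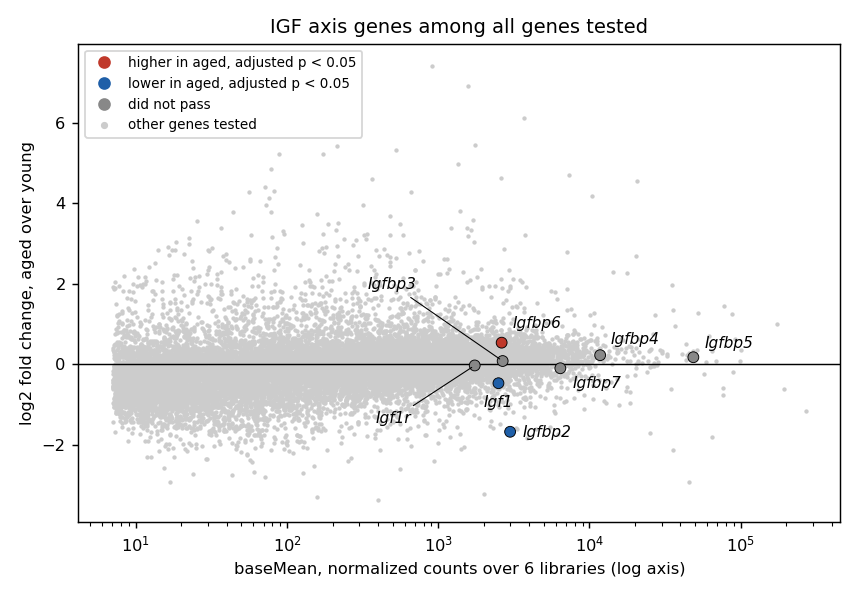
Log2 fold change, aged over young, against baseMean on a log axis for each gene tested (small grey points) and for the IGF axis genes (outlined points). All 8 lie at a baseMean of 1744 or more, and Igfbp2 lies below most genes of its abundance.

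Levels between genes were compared per kilobase (kb) of the longest annotated transcript, in normalized counts over all 6 libraries. The methods of the study derive the normalized counts from TPM, a unit already divided by length, so it is not certain that a division by length is due, and the order without it is given as well. Igfbp5 had 8106 per kb, Igfbp7 had 5351, Igfbp4 had 3074, Igfbp6 had 2363, Igfbp2 had 2287 and Igfbp3 had 1102. Igf1 had 355 per kb and Igf1r had 153, below each of the binding proteins. The spread over mice is not known for these levels, so neighbours in this order, such as Igfbp6 and Igfbp2, cannot be called different. With exon-union lengths the order was the same, with Igfbp2 at 1618 per kb and Igf1 at 253. By baseMean without division by length, Igfbp5 came before Igfbp4, Igfbp7, Igfbp2, Igfbp3, Igfbp6, Igf1 and Igf1r. Igfbp5 was thus first, and Igf1 and Igf1r last, by the mean over all 6 libraries on each scale. In aged mice alone, without division by length, Igfbp2 at 1424 was below Igf1 at 2098 and Igf1r at 1726.

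Group levels were worked out from baseMean and fold change, and they show how the make-up of the family shifted. Igfbp2 held place 3 among the 6 binding proteins in young mice, at 3484 normalized counts per kb, and place 6 in aged mice, at 1090. The aged place was close to that of Igfbp3, at 1133, and these levels carry no error. With exon-union lengths its place 3 in young mice was close to a tie, at 2465 against 2458 for Igfbp4. Without division by length it held place 4 in young mice, at 4554, and place 6 in aged mice, at 1424. Igfbp6 went from 1929 to 2797 per kb. Igfbp5 led in both groups, at 7616 and 8596 per kb. As a share of the summed level per kb of the 6 binding proteins, Igfbp2 made up 15.5% in young and 4.93% in aged mice, Igfbp6 8.58% and 12.7%, and Igfbp5 33.9% and 38.9%. Without division by length these shares were 6.28% and 1.83% for Igfbp2, 2.96% and 4.0% for Igfbp6, and 63.1% and 66.4% for Igfbp5.

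The summed level of the 6 binding proteins was worked out in the same way. Per kb it was 22470 in young and 22096 in aged mice, a change of -1.66%. In normalized counts without division by length it was 72533 and 77798, 7.26% higher. The direction of the sum of all 6 thus depended on the scale. Without Igfbp5, which was not called, the sum changed by -9.11% per kb and by -2.31% without division by length. These sums carry no error, because the table gives none for a sum.

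**Figure D3:**
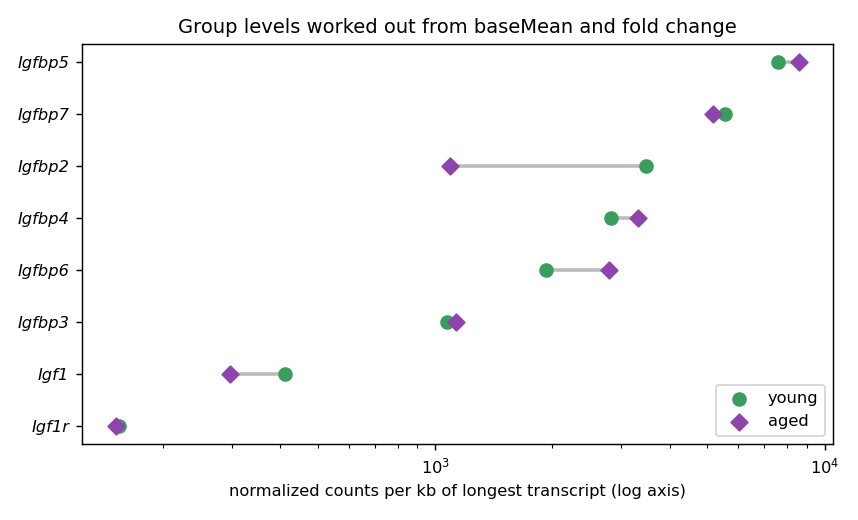
Group levels of each IGF axis gene in normalized counts per kb of longest transcript (log axis), young as circles and aged as diamonds, worked out from baseMean and fold change and without error bars. Igfbp2 drops from 3484 to 1090, Igfbp6 rises from 1929 to 2797, and the remaining 4 binding proteins did not pass the test.

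Other genes of the pathway were read from 7 lists of 53 genes in all. Of these, 50 had an adjusted p and 14 differed, 7 higher and 7 lower in aged mice. That is 28% of them, beside the 21.2% of all genes tested. Their median log2 fold change was 0.08. The other 3, Igfbp1, Igfbpl1 and Irs4, have a baseMean under 5 and no adjusted p in the deposited table, and none was called when every gene with a p-value was adjusted. The lists are short, so their counts below are a description, to be read beside the 11.3% of all genes tested that were higher and the 9.92% that were lower.

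Upstream of Igf1, growth hormone signals through its receptor, Jak2 and the Stat5 factors. Of 5 genes of this arm, 1 was higher and 1 lower in aged mice, or 1 of 5 each way beside 11.3% and 9.92% of all genes tested. Stat5a, a transcription factor that carries the growth hormone signal to the Igf1 gene, rose by 0.44 ± 0.15 on the log2 scale (SE, adjusted p 0.0215 by DESeq2). It no longer passed after centring on the median of the more abundant genes, which shifted each log2 value by 0.06. Socs2, which is induced by growth hormone and damps its receptor, fell by 0.51 (SE 0.16, adjusted p 0.00899). The other 3, the receptor gene included, did not pass.

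Proteases that cut binding proteins, and the stanniocalcins that inhibit some of them, gave 3 of 5 genes lower and 0 higher, beside 9.92% and 11.3% of all genes tested, with a median log2 fold change of -0.44. At an unadjusted p under 0.05 the DESeq2 table likewise had 0 higher genes on this list. Pappa2, a metalloprotease that cleaves Igfbp3 and Igfbp5, had the lowest adjusted p on the list, 1.89e-06. Its log2 fold change was -0.82 ± 0.15 (SE), so that aged mice had 0.57 times the young level. Htra1, a secreted serine protease, fell by 0.44 (SE 0.15, adjusted p 0.0272), and Stc1, a stanniocalcin, fell by 0.58 (SE 0.18, adjusted p 0.0122). The list thus holds falls in proteases and in Stc1, whose family inhibits some of the listed proteases. Among other carriers, Igfals, which forms a ternary complex with IGF and Igfbp3 in blood, was barely detected, at a baseMean of 10.4, and stood at -0.08 on the log2 scale (SE 0.44, adjusted p 0.927).

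Downstream, the docking proteins Irs1 and Irs2 moved in opposite directions. Irs1, which links the IGF-1 and insulin receptors to PI3K, fell by 0.71 (SE 0.17, adjusted p 0.000354). Irs2, its relative with the same task, rose by 0.57 (SE 0.17, adjusted p 0.00686). Grb2, the adaptor that leads to Ras, rose by 0.87 (SE 0.17, adjusted p 1.14e-05). These were the 3 calls among the 9 genes of receptors and adaptors with an adjusted p, beside 21.2% of all genes tested.

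Further down the cascade, 1 of 13 genes of the PI3K, Akt and Foxo arm passed, beside 21.2% of all genes tested. It was Akt1, a kinase at the centre of the arm, with a rise of 0.40 (SE 0.13, adjusted p 0.0163). After the same centring Akt1 did not pass, which left 0 calls in this arm, where the DESeq2 table has 3 genes at an unadjusted p under 0.05. Of 8 genes of the mTOR arm 0 passed by DESeq2, and 0 had an unadjusted p under 0.05. The lowest adjusted p among them was that of the S6 kinase gene Rps6kb1, at 0.178, at -0.30 on the log2 scale (SE 0.16). The median SE was 0.13 in the PI3K, Akt and Foxo arm and 0.15 in the mTOR arm.

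Some secreted or membrane-bound proteins carry a binding-protein type amino-terminal domain without being IGF carriers, and 5 of 9 such genes differed, beside 21.2% of all genes tested. Ctgf, a matrix-associated factor of connective tissue, rose by 0.99 (SE 0.16, adjusted p 8.85e-09). Wisp2, a member of the same family, rose by 0.81 (SE 0.22, adjusted p 0.00210), and Crim1, a membrane-bound antagonist of BMP signals, by 0.53 (SE 0.17, adjusted p 0.0151). Nov fell by 1.00 (SE 0.16, adjusted p 2.7e-08) and Wisp1 fell by 0.65 (SE 0.14, adjusted p 9.49e-05), both from the family of Ctgf. The 4 members of that family that were called therefore fell into both directions, 2 up and 2 down.

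**Figure D4:**
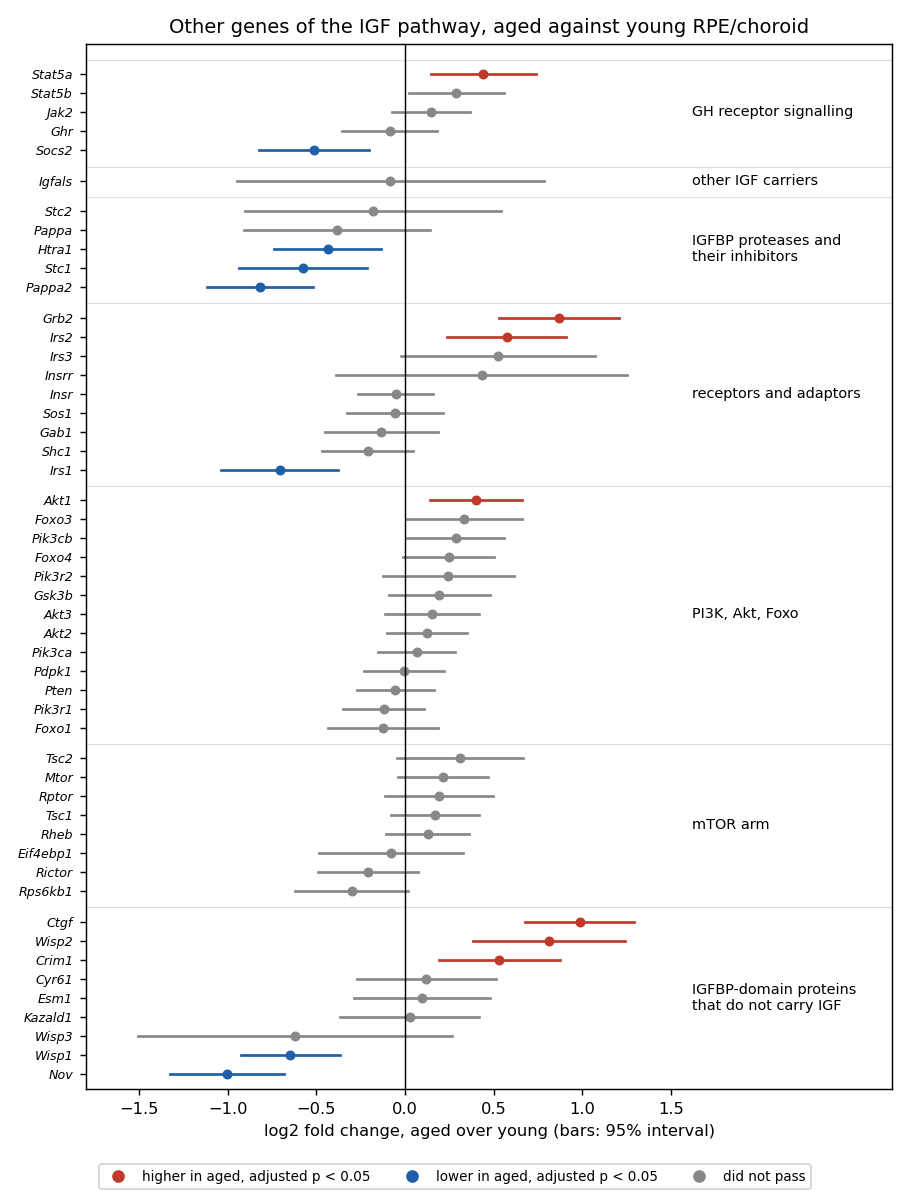
Log2 fold change, aged over young (points), with 95% intervals (bars) for the 50 pathway genes tested, grouped by role. The 14 coloured genes passed the test, 7 on each side of 0, with 3 of the 5 genes for proteases and their inhibitors called lower and the mTOR arm all grey.

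RNA of several cell type markers also differed between the groups, which may be read beside the same 11.3% higher and 9.92% lower over all genes tested. RPE markers were abundant, with Ttr, Rgr and Rpe65 at a baseMean of 99322, 92190 and 43745. Of 7 RPE markers tested 2 were higher, and the summed level of the list was 269143 in young and 329217 in aged mice. Macrophage markers were 5 of 8 higher and 1 lower, with summed levels of 11338 and 26113. The most abundant of them were Csf1r (0.37, SE 0.13), C1qa (1.92, SE 0.18) and Emr1 (2.12, SE 0.16), each called higher. The 1 lower marker, Cd163, a scavenger receptor of tissue macrophages, fell by 2.34 and was named after its value had been seen.

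Fibroblast markers were 2 of 8 higher and 4 lower, and their summed level was 295952 in young and 126582 in aged mice. They did not move as 1 group. The fall of the sum lay in the 3 collagen genes, whose summed level was 239191 in young and 52761 in aged mice. The other 5 markers summed to 56762 and 73821, with 2 called higher and 1, Fap, called lower by DESeq2 (-0.46, adjusted p 0.0306). Both this split and Fap were chosen after the values had been seen. Col1a2 fell by 1.80 (SE 0.15) and Col1a1 fell by 2.91 (SE 0.17), whereas Dcn rose by 0.51 (SE 0.13). Mural cell markers were 3 of 8 lower and 0 higher, also 0 higher at an unadjusted p under 0.05 by DESeq2, and their summed level was 39779 in young and 38884 in aged mice. The most abundant were Rgs5 at 0.32 (SE 0.18), Pdgfrb at 0.06 (SE 0.18) and Acta2 at -0.94 (SE 0.14). Endothelial markers were 1 of 7 higher and 1 lower, with summed levels of 22175 and 23912, and with Kdr at 0.14 (SE 0.16), Vwf at 0.69 (SE 0.21) and Emcn at -0.19 (SE 0.14).

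Rod photoreceptor markers, which belong to the adjoining neural retina, gave 0 of 8 calls by DESeq2 and 0 at an unadjusted p under 0.05, with a median SE of 0.40. Sag and Gnat1 had baseMeans of 13165 and 12334, so the tissue held retinal RNA. None of the 48 markers on the 6 lists was at 0. The part of these markers in the changes of the IGF axis was not tested.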

How the data were processed

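Total RNA of RPE/choroid was sequenced from 3 young and 3 aged mice after removal of ribosomal RNA. Per the labels and the methods of the study, the authors used BBDuk for trimming and STAR for alignment against GRCm38 transcripts from Ensembl, estimated abundance with Sailfish, scaled it by total count and compared the age groups with DESeq2. The deposited baseMean is a normalized signal, the mean over the 6 libraries. The deposited log2 fold change has a standard error on the same scale, and the deposited Wald score is their quotient. The deposited p-value comes from that score, and a further deposited column adjusts it. These are columns of the authors' own comparison, and they are described here because the table holds no count or value per library. It had 0 columns of per-sample values, so no fit was made.

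The table does not say which group is the numerator. It was read as young over aged, after the directions that the study states, and turned, so each direction here depends on that reading. The recomputed adjusted p differed from the deposited one by at most 0.572%. No source used here says whether fold changes were shrunken. The SE was lower at the lowest baseMeans (0.285 for Igfbp1 at 0.806, 0.345 for Irs4 at 1.37) than for Igfals (0.442 at 10.4), as shrunken estimates show, so large fold changes, and the differences in group levels and shares built on them, are probably understated. The p-values weigh each fold change against its modelled SE, and both come from these 6 libraries alone. A gene differs where the adjusted p is under 0.05. Intervals are 1.96 SE on each side. Group levels were solved from baseMean and fold change with equal group sizes. Lengths, positions and coding stretches came from GENCODE M21 on GRCm38, the coding stretch from the longest transcript with a complete reading frame. The authors mapped to an Ensembl annotation of that build, so their transcripts and overlapping genes may differ from those used here. Python 3.11.15, pandas 2.3.3 and scipy 1.17.1 were used, and the adjustment was tested on simulated data.

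The genes and lists were chosen with earlier results of these data known. Genes named are the 8 members, up to 5 called genes per pathway list by lowest adjusted p (where none was called, the gene with the lowest), and the 3 markers per list with the largest baseMean, of which 1 is not reported here. Alternatives were an adjusted p under 0.01, a log2 change of 1 or more in size, no filter on low genes, a baseMean of at least 10, centring on genes with a baseMean of at least 100, and Wald scores for genes without a p-value.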

Additional observations from a re-analysis of the deposited data

How the results depend on the processing

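No paired analysis was possible because replicate numbers cannot be tied to any deposited column, and for the same reason fits without 1 library, with a replicate block or with another tool were not run. The 3 calls for Igf1, Igfbp2 and Igfbp6 were unaltered with no filter on low genes, with a baseMean of at least 10, after centring and with Wald scores for genes without a p-value. An adjusted p under 0.01 kept Igf1 and Igfbp2, and a log2 change of 1 or more in size left 1 member, Igfbp2. Of the 14 pathway genes called, an adjusted p under 0.01 left 9 and the size rule left 1, Nov. Both rules are stricter by construction. Centring, which removed a median of 0.06, left 12 pathway genes, 5 higher and 7 lower, without Akt1 and Stat5a. Under centring no member changed sign, and Igfbp6 had 0.47 (adjusted p 0.0340), Igf1 -0.54 (adjusted p 0.000309) and Igfbp3 0.02. No depth per library was available, so precision rests on the deposited SE alone.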
